A study of Rattus norvegicus with 17 samples.

Results

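The genes described here encode VGF, the granins and the enzymes that process prohormones in dense-core granules. They were chosen by name, as the symbols Vgf, Chga, Chgb, Scg2, Scg3, Scg5, Pcsk1, Pcsk2, Cpe and Pam, with the probe set of highest mean to stand for a symbol. Of the 10 symbols, 9 had a probe set with that symbol alone, out of 14506 genes measured, and each of the 9 had a single probe set, so the rule on means made no choice. Pcsk1 was not analysed here. The names were drawn up with earlier results of these arrays known, so the p-values below, adjusted over all genes, take no account of that choice and are given as a description.

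Expression was measured on 17 Affymetrix arrays, 6 from rats given NVP-BEZ235 at 20 mg/kg, 4 at 30 mg/kg, and 7 from controls given polyethylene glycol (PEG) at 20 mg/kg. NVP-BEZ235 inhibits both phosphoinositide 3-kinase and mTOR. All the rats were 8 months old, of a Sprague-Dawley white eye/Wistar-Kyoto background, and all, controls included, carried a mutation of p27Kip1 (Cdkn1b, spelled Cdknb1 in the labels), which the sample labels call homozygous and the design text heterozygous. The 20 mg/kg group held 4 females and 2 males, the 30 mg/kg group 3 females and 1 male, and the control group 5 females and 2 males. The length of treatment is not given, the protocol field names no treatment, and nothing says that each library came from its own animal, so the tests reflect the variation among these libraries, which may be technical. Titles number the libraries 5 to 10 at 20 mg/kg, 1 to 4 at 30 mg/kg and 1 to 7 in controls, so dose and run of numbers cannot be told apart between the doses.

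The tissue is labelled pituitary adenoma, whereas the title of the series speaks of pheochromocytoma, which arises from chromaffin cells of the adrenal medulla. The catecholamine enzyme Th had a mean log2 value of 12.29 ± 0.32 (SD, n = 17) and the steroidogenic gene Star 12.11 ± 0.19, both above the upper quartile of every array, which was at most 7.10. Of 11 measured pituitary markers, 10 or 11 had group means below the median gene, and growth hormone (Gh1) had 3.86 ± 0.42. Prolactin (Prl) varied more, at 5.61 ± 1.22 with a highest value of 9.16, as did Pomc, at 4.64 ± 1.05 with a highest value of 7.86. The libraries are therefore named below only by their treatment. Replicates 3 and 4 at 30 mg/kg stood furthest from the controls, with a median correlation across genes of 0.948 and 0.940 with the control arrays, against 0.966 and 0.955 for replicates 1 and 2 at that dose and 0.961 to 0.979 at 20 mg/kg. The main results are given with and without those 2 libraries. Since they were picked as furthest from the controls, a smaller difference without them was partly built in. That fit also keeps only replicates 1 and 2 at 30 mg/kg, so a lost call can reflect the smaller number of libraries.

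Dense-core granules store peptide hormones in neuroendocrine cells and release them on stimulation. The granins are acidic proteins that aggregate in the trans-Golgi network and load the granules, and several are themselves cut into active peptides. Prohormones are cleaved by the convertases PC1/3 and PC2, trimmed by carboxypeptidase E and amidated at the C terminus by PAM. In chromaffin cells the granins share the granule with catecholamines, and VGF, first described as a gene induced by nerve growth factor in a rat pheochromocytoma cell line, is known to respond to neurotrophins and to cyclic AMP.

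Start regions of Vgf, Pcsk2, Cpe and Pam are shown because these are the genes that differed at 30 mg/kg below, and that of Scg2 because it shares an element with Vgf. Each covers 250 bases before to 50 after the annotated start, from RefSeq on build GRCr8, written 5′ to 3′ on the strand of the gene. They lie at chr12:25276971-25277270 (Vgf, minus strand), chr9:88256817-88257116 (Scg2, minus), chr3:151333688-151333987 (Pcsk2, plus), chr16:29796457-29796756 (Cpe, plus) and chr9:105570118-105570417 (Pam, plus). Capitals mark the palindromic cyclic AMP response element TGACGTCA or, where that is not present, its half-site TGACG read on either strand.
Vgf: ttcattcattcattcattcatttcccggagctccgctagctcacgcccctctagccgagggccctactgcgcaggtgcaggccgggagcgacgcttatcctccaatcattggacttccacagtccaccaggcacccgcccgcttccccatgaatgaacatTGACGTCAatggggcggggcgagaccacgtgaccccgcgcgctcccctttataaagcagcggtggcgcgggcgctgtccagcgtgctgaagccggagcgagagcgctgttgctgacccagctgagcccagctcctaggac
Scg2: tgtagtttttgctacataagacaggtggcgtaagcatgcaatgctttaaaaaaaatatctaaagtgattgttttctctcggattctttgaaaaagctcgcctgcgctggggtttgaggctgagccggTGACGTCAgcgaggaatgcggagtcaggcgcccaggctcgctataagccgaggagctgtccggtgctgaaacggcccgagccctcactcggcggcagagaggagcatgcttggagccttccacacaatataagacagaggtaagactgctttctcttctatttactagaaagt
Pcsk2: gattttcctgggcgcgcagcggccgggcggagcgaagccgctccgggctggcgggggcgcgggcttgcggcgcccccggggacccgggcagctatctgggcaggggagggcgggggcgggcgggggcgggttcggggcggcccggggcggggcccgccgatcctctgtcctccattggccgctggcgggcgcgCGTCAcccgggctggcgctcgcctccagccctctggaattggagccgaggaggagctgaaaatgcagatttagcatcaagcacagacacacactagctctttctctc
Cpe: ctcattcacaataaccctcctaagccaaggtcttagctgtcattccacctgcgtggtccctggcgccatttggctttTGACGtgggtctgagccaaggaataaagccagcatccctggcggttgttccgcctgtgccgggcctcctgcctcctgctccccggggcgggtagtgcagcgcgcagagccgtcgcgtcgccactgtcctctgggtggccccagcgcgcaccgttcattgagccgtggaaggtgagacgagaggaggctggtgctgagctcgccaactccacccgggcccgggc
Pam: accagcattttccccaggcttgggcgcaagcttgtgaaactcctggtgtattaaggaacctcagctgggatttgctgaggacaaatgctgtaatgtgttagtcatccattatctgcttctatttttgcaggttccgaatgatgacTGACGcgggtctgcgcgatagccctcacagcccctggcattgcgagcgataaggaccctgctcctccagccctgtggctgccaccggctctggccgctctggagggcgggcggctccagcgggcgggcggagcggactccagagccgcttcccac

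Of the 10 symbols, 8 had an entry in the promoter table. Chga and Pcsk1 had none and were not searched. The full element was found in 2 of the 8, Vgf (first base at -90, with the annotated start as base 0) and Scg2 (at -123), and in 1.83% of the 33469 promoters of the table. The half-site, which the full element contains on both strands, was found in 7 of the 8, all but Chgb, and in 21.2% of all promoters. The Vgf region also held the palindromic E-box CACGTG at -65, a motif present in 6.42% of promoters, and TATAAA on both strands in overlapping copies at -43 and -41 (14.2% of promoters). These are matches of letters in a window and say nothing of binding.

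At 30 mg/kg, transcripts of the neuropeptide precursor Vgf, the convertase Pcsk2, carboxypeptidase E (Cpe) and the amidating enzyme Pam were higher than in the controls, while those of chromogranins A and B were near the control level. The comparison sets the libraries labelled with the higher dose against all controls. With limma, 4 of the 9 genes were higher and 0 lower at an adjusted p below 0.05, against 3.66% of all genes higher and 4.89% lower (8.55% in all). The median log2 difference of the 9 genes was 0.52, and that of all genes 0.01.

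Vgf had log2 values of 7.67, 8.79, 10.89 and 10.81 in 30 mg/kg replicates 1 to 4, against 5.37 to 6.53 (median 5.77) in the 7 controls. All 4 treated libraries lay above every control, and the spread among them exceeded that of the controls, with replicates 3 and 4 the highest. The means were 9.54 ± 1.58 (SD, n = 4) at 30 mg/kg and 5.88 ± 0.38 (n = 7) in controls, a difference of 3.70 ± 0.56 (SE; 13.0-fold, limma adjusted p = 0.00102). Without replicates 3 and 4 the difference was 2.63 (adjusted p = 0.0554). In controls Vgf was among the moderate signals of the arrays, below their upper quartile.

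**Figure D1:**
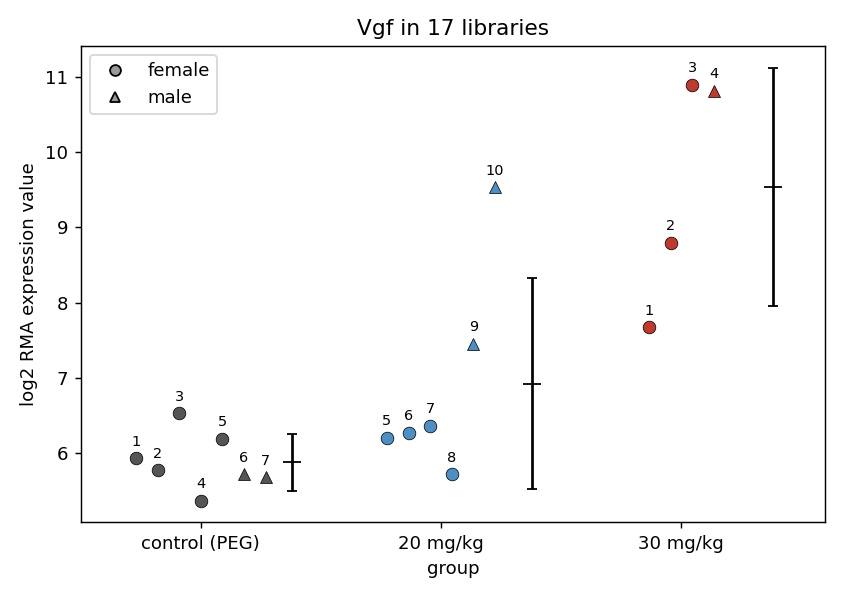
Log2 RMA expression value of Vgf in each of the 17 libraries, by group from control (PEG) through 20 mg/kg to 30 mg/kg NVP-BEZ235, with circles for females, triangles for males, the title number above each point, and the group mean ± SD beside the points. The 4 libraries at 30 mg/kg sit between 7.67 and 10.89, above all controls, and at 20 mg/kg replicates 9 and 10 sit above the other 4.

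Pcsk2, which encodes the convertase PC2, had log2 values of 8.85, 8.45, 8.58 and 9.37 in 30 mg/kg replicates 1 to 4, against 6.92 to 8.00 (median 7.16) in the controls. The groups did not overlap, and here replicates 3 and 4 were not both above replicates 1 and 2. The difference was 1.43 ± 0.29 (SE; 2.7-fold, limma adjusted p = 0.0058), and 1.11 without replicates 3 and 4 (adjusted p = 0.119).

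Cpe, whose product removes basic residues left by the convertases, had log2 values of 11.25, 11.05, 11.60 and 11.52 in 30 mg/kg replicates 1 to 4, against 10.15 to 11.15 (median 10.69) in the controls. Replicate 2 lay within the control range and the other 3 above it. The difference was 0.69 ± 0.16 (SE; 1.61-fold, limma adjusted p = 0.0126). Pam, the peptidylglycine monooxygenase gene, had 10.16, 10.09, 10.57 and 10.51 at 30 mg/kg, against 9.62 to 9.93 (median 9.89) in the controls, with no overlap. Its difference was 0.52 ± 0.12 (1.43-fold, limma adjusted p = 0.0148). Neither call held without replicate 3 (adjusted p = 0.0503 for Cpe and 0.0597 for Pam) or without replicate 4 (0.0581 and 0.0919), and without both the differences were 0.52 and 0.29 (adjusted p = 0.242 and 0.376).

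All 30 mg/kg libraries stood above all controls in 3 of the 9 genes, Vgf, Pcsk2 and Pam, and in 1.75% of all genes. Without replicates 3 and 4, a setting added after the data were seen, 0 of the 9 genes passed, and 155 genes passed in all, against 1240 with all libraries. Leaving out replicate 3 or replicate 4 alone left 2 of the 9, Vgf and Pcsk2.

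Neither chromogranin passed at 30 mg/kg. Chga, chromogranin A, the classical granule marker of chromaffin cells, had 12.40, 12.13, 11.51 and 11.86 in 30 mg/kg replicates 1 to 4, against 11.57 to 12.26 (median 11.98) in the controls. Chgb, chromogranin B, had 12.63, 12.54, 12.40 and 12.52 at 30 mg/kg, against 12.32 to 12.56 (median 12.45) in the controls. The treated and control libraries overlapped for both genes. Their differences were 0.01 ± 0.15 and 0.09 ± 0.09 (SE; limma adjusted p = 0.99 and 0.622). Both genes lay near the top of the array range. The mean of Chga stood at percentile 99.8 of the gene means, while that of Vgf stood at percentile 70.3.

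Scg2, secretogranin II, the precursor of secretoneurin, had 12.00, 11.55, 11.01 and 11.66 in 30 mg/kg replicates 1 to 4, against 11.65 to 12.10 (median 11.98) in the controls. Replicate 3 was the lowest library, replicate 2 lay just below the controls, and replicates 1 and 4 lay inside the control range. The difference was -0.39 ± 0.14 (SE), which did not pass (limma adjusted p = 0.102).

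Scg3, secretogranin III, which binds chromogranin A to the granule membrane, had 10.15, 9.76, 10.90 and 10.85 in 30 mg/kg replicates 1 to 4, against 9.01 to 10.27 (median 9.79) in the controls. Replicates 3 and 4 were above every control and replicates 1 and 2 within the control range. The difference of 0.66 ± 0.21 (SE; limma adjusted p = 0.0591) lay just outside the threshold and passed under 6 of 28 alternatives. Scg5, the gene of 7B2, the chaperone and inhibitor of PC2, had 10.46, 10.43, 10.41 and 10.35 at 30 mg/kg, against 9.76 to 11.09 (median 10.91) in the controls. The 4 treated values lay close together inside the control range, and the difference was -0.27 ± 0.20 (adjusted p = 0.441). Thus Pcsk2 passed the test while the transcript of its chaperone did not.

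**Figure D2:**
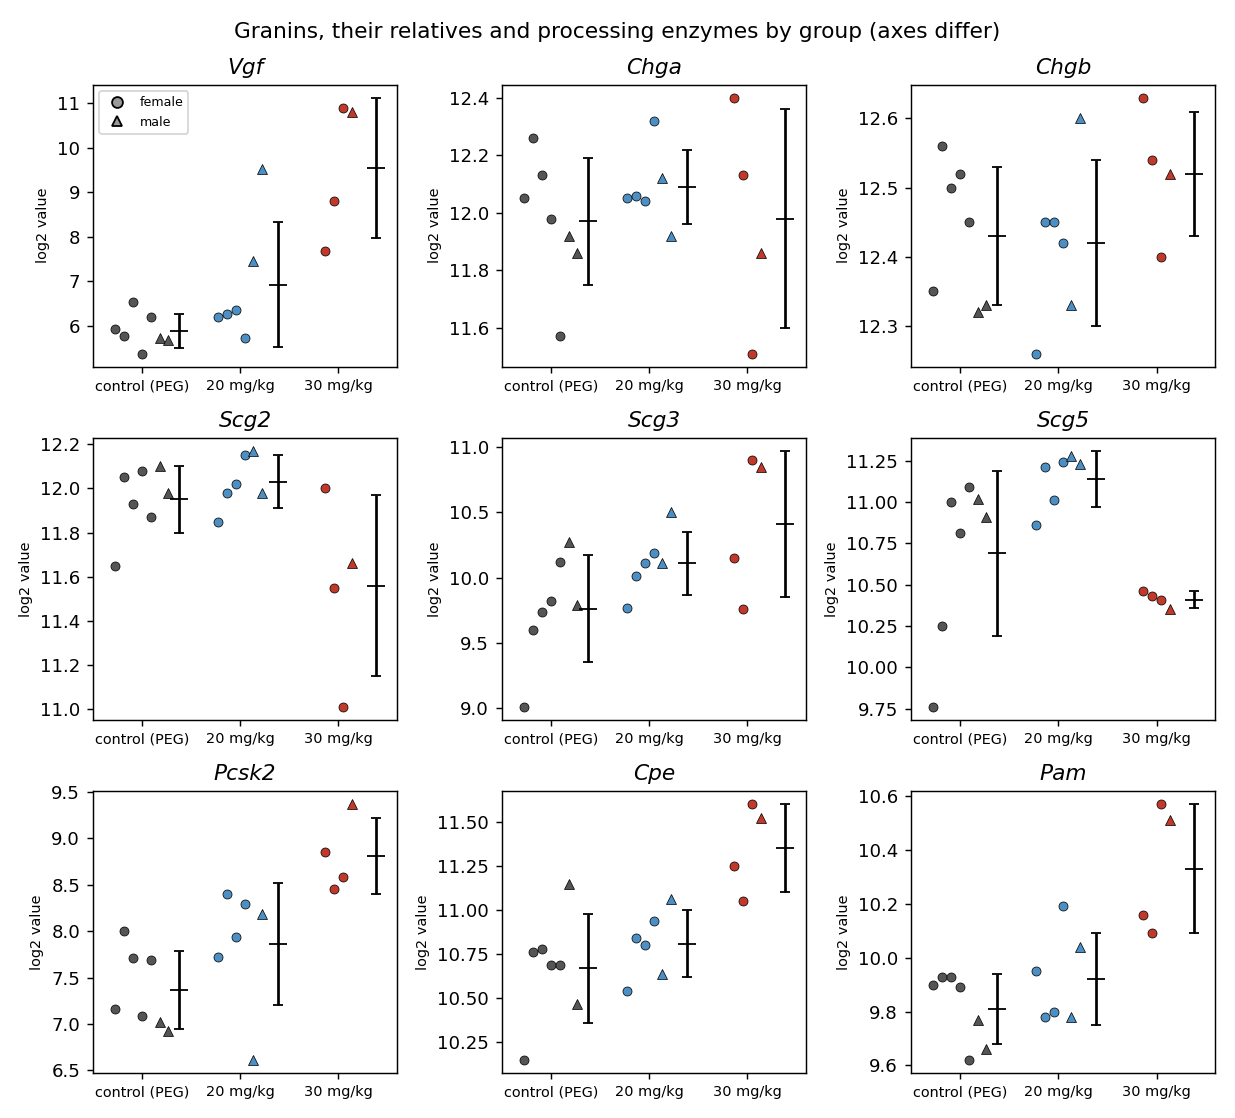
Log2 RMA values of the 9 genes in each library, 1 panel a gene with its own axis, groups from control (PEG) through 20 mg/kg to 30 mg/kg, circles for females, triangles for males, and the group mean ± SD beside the points. Vgf spans 5.37 to 10.89 over the 17 libraries, while Chgb spans 12.26 to 12.63, and Scg5 at 30 mg/kg lies between 10.35 and 10.46.

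Set against the controls of their own title numbers, 1 to 4, the 30 mg/kg libraries gave a like set of genes. The treated libraries are the same as above and the controls a part of those, so the likeness is not separate support. Controls 1 to 4 were all female, while 30 mg/kg replicate 4 was male, so those controls do not inform the sex term. The fitted Vgf difference below thus departs from the plain difference of means, 3.64. Vgf was 3.27 ± 0.63 higher (SE; 9.65-fold, limma adjusted p = 0.0131), Pcsk2 1.40 ± 0.34 higher (adjusted p = 0.0364) and Cpe 0.73 ± 0.18 higher (adjusted p = 0.0421). Pam differed by 0.40 ± 0.13 (adjusted p = 0.104) and Scg3 by 0.80 ± 0.24 (adjusted p = 0.0787). In all, 3 of the 9 genes were higher and 0 lower, against 1.5% of all genes higher and 1.52% lower (3.01% in all), and the medians were 0.40 and -0.01. The 30 mg/kg libraries lay above all of controls 1 to 4 in 4 of the 9 genes, Vgf, Pcsk2, Cpe and Pam, and in 3.46% of all genes. In the fit without replicates 3 and 4, 0 of the 9 passed, with Vgf at 2.33 (adjusted p = 0.103).

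The 2 runs of controls were also set against each other. Controls 5 to 7 against controls 1 to 4 gave 0 calls among the 9 genes by limma, against 3.61% of all genes, with 1 of the 9 and 3083 of all genes at an unadjusted p below 0.05. All of controls 5 to 7 lay below all of controls 1 to 4 in 2 of the 9 genes and in 10.5% of all genes. These were Chga, at 11.78 ± 0.18 (SD, n = 3) in controls 5 to 7 and 12.10 ± 0.12 (n = 4) in controls 1 to 4, and Pam, at 9.68 ± 0.07 and 9.91 ± 0.02. The gene with the unadjusted p below 0.05 was Scg5, at 11.01 ± 0.09 (SD, n = 3) in controls 5 to 7 and 10.46 ± 0.56 (n = 4) in controls 1 to 4, a difference of 0.53 ± 0.25 (SE; adjusted p = 0.228). Vgf had means of 5.87 ± 0.28 in controls 5 to 7 and 5.90 ± 0.48 in controls 1 to 4. Its fitted difference was -1.02 ± 0.75 (adjusted p = 0.457), from a fit with a sex term in which controls 6 and 7 are the male ones.

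At 20 mg/kg none of the 9 genes passed, and 1.18% of all genes did. Vgf was the gene with the widest spread. It had 6.20, 6.27, 6.36, 5.72, 7.45 and 9.53 in 20 mg/kg replicates 5 to 10, so replicates 9 and 10 stood above the highest control, at 6.53, and the other 4 within the control range. The difference from all controls was 0.98 ± 0.50 (SE; limma adjusted p = 0.323), and from controls 5 to 7 it was 1.55 ± 0.64 (adjusted p = 0.44). Over the 28 alternatives the difference from all controls ranged from 0.18 to 1.55 and never passed. The difference from controls 5 to 7, 1.06 as a plain difference of means, ranged from -0.06 to 2.63 over 27 alternatives, with 1 of opposite sign.

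Replicates 9 and 10 are the 2 males of the 20 mg/kg group. Treated males had Vgf values of 10.81 at 30 mg/kg and 7.45 and 9.53 at 20 mg/kg, against 7.67 to 10.89 in the 3 females at 30 mg/kg and 5.72 to 6.36 in the 4 females at 20 mg/kg. Control males had 5.68 and 5.72, and control females 5.37 to 6.53. The product term of treatment and sex, added after these values were seen, was 2.11 ± 1.40 (SE; limma adjusted p = 0.763) for Vgf. That fit pooled both doses without a dose term, so the difference between the doses fell within its residual spread. It therefore does not test the males at 20 mg/kg alone. The product term passed for 0 of the 9 genes and for 0.00689% of all genes (1 gene), with 951 genes at an unadjusted p below 0.05.

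The other genes varied less at 20 mg/kg. Pcsk2 ranged from 6.61 to 8.40 (median 8.06), with 5 of 6 libraries above the control mean and replicate 9 below every control. Its difference from all controls was 0.50 ± 0.25 (SE; limma adjusted p = 0.32). Scg5 ranged from 10.86 to 11.28 (median 11.22), with all 6 libraries above the control mean, a difference of 0.44 ± 0.18 (adjusted p = 0.211). That was the single gene of the 9 with an unadjusted p below 0.05, against 2522 of all genes. The differences of Scg3, Cpe, Chga, Pam, Scg2 and Chgb lay between -0.01 and 0.33.

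Against controls 5 to 7, 0 of the 9 genes passed at 20 mg/kg and 0.358% of all genes did. All 6 libraries at 20 mg/kg lay above those 3 controls in 2 of the 9 genes, Pam (0.27 ± 0.13, SE; limma adjusted p = 0.553) and Chga (0.30 ± 0.17; adjusted p = 0.626), and in 3.22% of all genes. Those are the 2 genes in which controls 5 to 7 lay below controls 1 to 4, and against all 7 controls the 20 mg/kg libraries overlapped for both. The difference between the doses' effects, each against the controls of its own numbers, was 1.72 ± 0.93 for Vgf (adjusted p = 0.771) and 0.65 ± 0.27 for Cpe (adjusted p = 0.721). It passed for 0 of the 9 genes and 0.0% of all genes by limma, with 971 genes at an unadjusted p below 0.05.

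**Figure D3:**
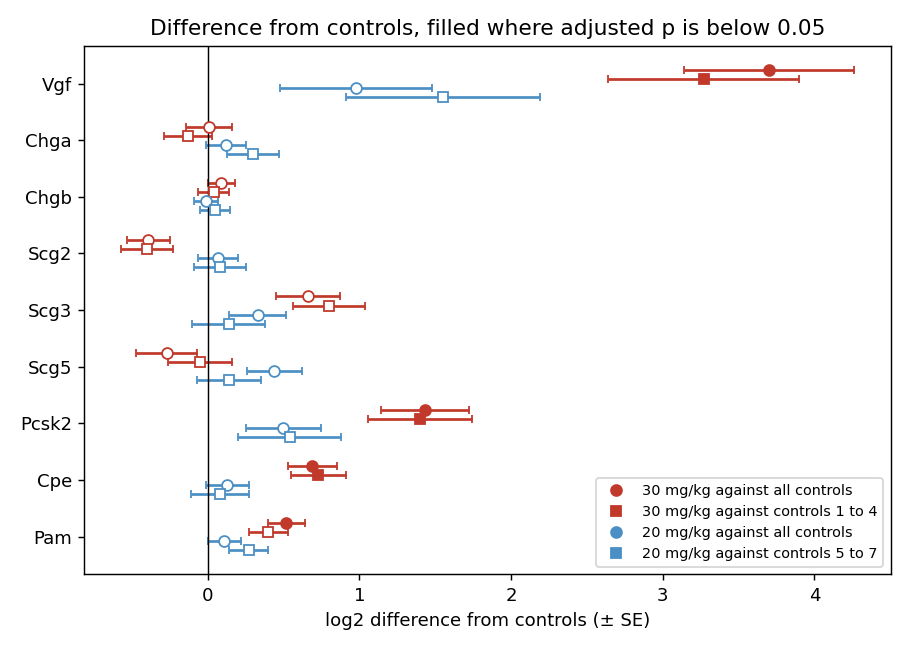
Fitted log2 difference from controls (horizontal axis, ± SE) of the 9 genes, red for 30 mg/kg and blue for 20 mg/kg, circles against all 7 controls and squares against the controls of the same run of title numbers, filled where the limma adjusted p was below 0.05. Vgf at 30 mg/kg lies at 3.70 and 3.27, Pcsk2 at 1.43 and 1.40, and no 20 mg/kg value is filled.

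Between the doses, 30 mg/kg libraries were higher than 20 mg/kg libraries in Vgf, Pcsk2, Cpe and Pam and lower in Scg5. By limma 4 of the 9 genes were higher and 1 lower, against 3.92% of all genes higher and 8.16% lower (12.1% in all). Vgf differed by 2.72 ± 0.58 (SE; 6.57-fold, adjusted p = 0.01), with an overlap, since 20 mg/kg replicate 10 exceeded 30 mg/kg replicates 1 and 2. Scg5 was lower by the fit, at -0.71 ± 0.20 (adjusted p = 0.0331), with no overlap between 10.35 to 10.46 at 30 mg/kg and 10.86 to 11.28 at 20 mg/kg. Against controls of the same run of numbers, however, Scg5 differed by -0.05 ± 0.21 at 30 mg/kg (limma adjusted p = 0.937). At 20 mg/kg it differed by 0.14 ± 0.21 (adjusted p = 0.911), and the difference of these effects was -0.20 ± 0.30 (adjusted p = 0.929). Between the doses Scg2 differed by -0.46 ± 0.15 (adjusted p = 0.0525). Without 30 mg/kg replicates 3 and 4, 0 of the 9 passed, with Vgf at 1.64 (adjusted p = 0.195).

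The other 3 calls between the doses were close to the threshold. Pcsk2 differed by 0.93 ± 0.30 (SE; limma adjusted p = 0.0492), Cpe by 0.56 ± 0.16 (adjusted p = 0.034) and Pam by 0.41 ± 0.13 (adjusted p = 0.0434). Pcsk2 kept its call under 11 of 26 alternatives, Scg5 under 16, Cpe and Pam under 18 each and Vgf under 24. Without 30 mg/kg replicate 4, 0 of the 9 passed (Vgf adjusted p = 0.0583). Without replicate 3, or without 20 mg/kg replicate 6, 7 or 9, 1 passed, and without 20 mg/kg replicate 5, 2 did.

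The order of the group means was control, 20 mg/kg, 30 mg/kg for Vgf, Scg3, Pcsk2, Cpe and Pam. For Vgf, Pcsk2, Cpe and Pam the upper step passed the test and the lower one did not, and for Scg3 neither step passed. Scg5 and Scg2 had the order 30 mg/kg, control, 20 mg/kg from low to high, and no step passed for Chga or Chgb. With both doses pooled against all controls, 0 of the 9 genes passed by limma, and 1.48% of all genes did. At an unadjusted p below 0.05 stood 5 of the 9 and 2095 of all genes. Vgf then differed by 2.07 ± 0.66 (SE; adjusted p = 0.129) and Pcsk2 by 0.88 ± 0.28 (adjusted p = 0.13).

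Over the 17 arrays, Pearson's r with Vgf was 0.78 for Pam, 0.75 for Cpe, 0.70 for Scg3 and 0.64 for Pcsk2, and it was 0.33 for Chgb, -0.22 for Scg5, -0.35 for Chga and -0.67 for Scg2. The closest pair was Scg3 and Cpe, at 0.86. These correlations are descriptions, since the arrays share the treatment groups and the same libraries are high in several genes. Of all genes, those most like Vgf were Sgms2, a sphingomyelin synthase gene (r = 0.963), Lcn2, lipocalin 2 (0.947), Adcyap1, the precursor of PACAP (0.942), Upp1, uridine phosphorylase (0.934), and Olr1, a receptor of oxidised LDL (0.931). The gene most like each of the others was Map3k6 for Pcsk2 (0.92), Grin1 for Cpe (0.89), Slc3a2 for Pam (0.922), Fam107b for Scg3 (0.922), Ift27 for Scg5 (0.941), Dpp6 for Scg2 (0.96), Sbf2 for Chga (0.857) and Klf14 for Chgb (0.798).

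Adcyap1, which encodes a peptide that acts on chromaffin cells through cyclic AMP, had 5.41, 5.59, 11.34 and 10.52 in 30 mg/kg replicates 1 to 4, against 3.88 to 4.79 in the controls. At 20 mg/kg it had 7.88 in replicate 10 and at most 4.95 in the other 5. The libraries with high Adcyap1, replicates 3 and 4 at 30 mg/kg and replicate 10 at 20 mg/kg, were also the 3 with the highest Vgf. Adcyap1 was named here for its correlation with Vgf over these same arrays, so that match was built into the choice. Replicates 1 and 2 at 30 mg/kg had Vgf values of 7.67 and 8.79 and Adcyap1 values of 5.41 and 5.59, in both genes above every control. A link between Adcyap1 and Vgf was not tested.

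Other genes of the granule pathway were taken from lists of names. Of 19 measured genes of granule cargo and processing, 3 were higher and 3 lower at 30 mg/kg against all controls (limma), where 3.66% of all genes were higher and 4.89% lower. The median was 0.17, against 0.01 over all genes. Pcsk1n, the gene of proSAAS, an inhibitor of PC1/3, had 8.61, 8.55, 8.05 and 7.75 in 30 mg/kg replicates 1 to 4, against 8.74 to 9.48 in the controls, with no overlap. The log2 difference was -1.0 ± 0.18 (SE; limma adjusted p = 0.0027). Furin, the convertase of the constitutive pathway, had 7.32, 7.46, 7.68 and 7.50 at 30 mg/kg, against 6.15 to 7.12 in the controls, and rose by 0.77 ± 0.15 (adjusted p = 0.00464). The carboxypeptidase gene Cpm rose by 0.97 ± 0.20 (adjusted p = 0.00794), and the endothelin-converting enzyme gene Ece2 fell by 0.65 ± 0.14 (adjusted p = 0.0102). Without replicates 3 and 4, 0 of the 19 passed, with Furin at 0.77 (adjusted p = 0.0633) and Pcsk1n at -0.68 (adjusted p = 0.126).

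Of 22 measured genes of the granule membrane and granule formation, 1 was higher and 4 lower at 30 mg/kg (median -0.20), beside the same shares of all genes. The one that rose was Ptprn, which encodes IA-2, a transmembrane protein of dense-core granules. It had 9.05, 8.93, 10.13 and 10.28 in 30 mg/kg replicates 1 to 4, against 7.79 to 8.74 in the controls, with no overlap, and rose by 1.38 ± 0.20 (SE; limma adjusted p = 0.000751). Ptprn kept its call without replicates 3 and 4 (0.93 ± 0.19, adjusted p = 0.0311), as the only one of the 22 that passed there. At 20 mg/kg it differed from the controls by 0.47 ± 0.18, which did not pass (unadjusted p = 0.0175 by limma), with replicate 10 highest at 9.49.

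Cyb561, the cytochrome that brings electrons into the granule for amidation by PAM and for catecholamine synthesis, had 11.21, 10.59, 9.53 and 9.26 in 30 mg/kg replicates 1 to 4, against 11.30 to 12.10 in the controls. All 4 lay below every control, and Cyb561 fell by 1.61 ± 0.27 in log2 terms (SE; limma adjusted p = 0.0022), while Pam, the enzyme that draws on it, rose. Sytl4, granuphilin, fell by 1.18 ± 0.26 (adjusted p = 0.00952), and Rab27a, the GTPase that granuphilin binds, by 1.59 ± 0.39 (adjusted p = 0.0187). Without replicates 3 and 4 the differences were -0.86 for Cyb561 (adjusted p = 0.0943), -0.93 for Sytl4 (0.161) and -1.36 for Rab27a (0.249). Against controls 1 to 4, 1 of the 22 was higher, Ptprn, and 1 lower, Cyb561, against 1.5% and 1.52% of all genes. Sytl4 and Rab27a thus did not pass there. At 20 mg/kg against controls 5 to 7, Sytl4 fell by 1.14 ± 0.23 (limma adjusted p = 0.0372). It was the only gene of the 22 to pass, where 0.358% of all genes did. Its mean was 7.76 ± 0.64 (SD) in controls 5 to 7 and 6.96 ± 0.91 in all 7 controls.

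Peptide precursors, some of which are substrates of the processing enzymes, were higher at 30 mg/kg in 11 of 31 measured genes and lower in 1. By limma the median was 0.39, and 3.66% of all genes were higher and 4.89% lower. Npy, neuropeptide Y, had 11.92, 12.20, 12.85 and 12.66 in 30 mg/kg replicates 1 to 4, against 10.38 to 11.37 in the controls, and rose by 1.48 ± 0.24 (SE; adjusted p = 0.00145). Nmu, neuromedin U, rose by 3.77 ± 0.62 (adjusted p = 0.00189), Calca, the precursor of calcitonin and CGRP, by 2.66 ± 0.52 (adjusted p = 0.00542) and Ucn2, urocortin 2, by 3.76 ± 0.82 (adjusted p = 0.00988). Of the 31, 1 passed without replicates 3 and 4, Nmu (2.08, adjusted p = 0.0284), and the median was 0.21. Against controls 1 to 4, 2 of the 31 were higher, Nmu and Npy, and 0 lower, against 1.5% and 1.52% of all genes. At 20 mg/kg against all controls 0 of the 31 passed, and 1.18% of all genes did.

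Of 23 measured genes of cyclic AMP and neurotrophin response and signalling, 11 were higher and 1 lower at 30 mg/kg (limma, median 0.86), against 3.66% of all genes higher and 4.89% lower. Besides genes known to respond, the list holds receptors and signalling components such as Ntrk2, Creb1 and Crtc1. The gene that was lower was the receptor gene Ngfr. The phosphodiesterase gene Pde10a rose by 2.32 ± 0.25 (SE; adjusted p = 0.000102), the nuclear receptor gene Nr4a2 by 2.04 ± 0.39 (adjusted p = 0.00486), the phosphatase gene Dusp1 by 1.85 ± 0.40 (adjusted p = 0.0092) and the transcription factor gene Egr2 by 0.86 ± 0.19 (adjusted p = 0.00958). Of the 23, 1 passed without replicates 3 and 4, Pde10a (2.63 ± 0.29, adjusted p = 0.00053), and the median was 0.47. Against controls 1 to 4, 2 of the 23 were higher, Pde10a and Nr4a2, and 0 lower, against 1.5% and 1.52% of all genes. At 20 mg/kg 1 of the 23, again Pde10a, was higher, by 1.11 ± 0.22 (adjusted p = 0.0244). Beside it, the convertase gene Pcsk5 (-0.62, adjusted p = 0.0495), of the cargo and processing list, was the only gene of these 5 lists past the threshold at 20 mg/kg against all controls.

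Of 11 measured neuroendocrine transcription factors, 0 were higher and 2 lower at 30 mg/kg (limma, median -0.34; 3.66% and 4.89% of all genes), Hand2, a factor of the sympathoadrenal lineage, and Gata2. Hand2 had 8.57, 7.96, 8.24 and 7.30 in 30 mg/kg replicates 1 to 4, against 9.01 to 10.12 in the controls, with no overlap. It fell by 1.71 ± 0.25 in log2 terms (SE; limma adjusted p = 0.000751) and kept its call without replicates 3 and 4 (-1.39 ± 0.28, adjusted p = 0.0284). Gata2 fell by 1.02 ± 0.22 (adjusted p = 0.00943) and lost its call there (-0.93, adjusted p = 0.093), so 1 of the 11 remained.

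**Figure D4:**
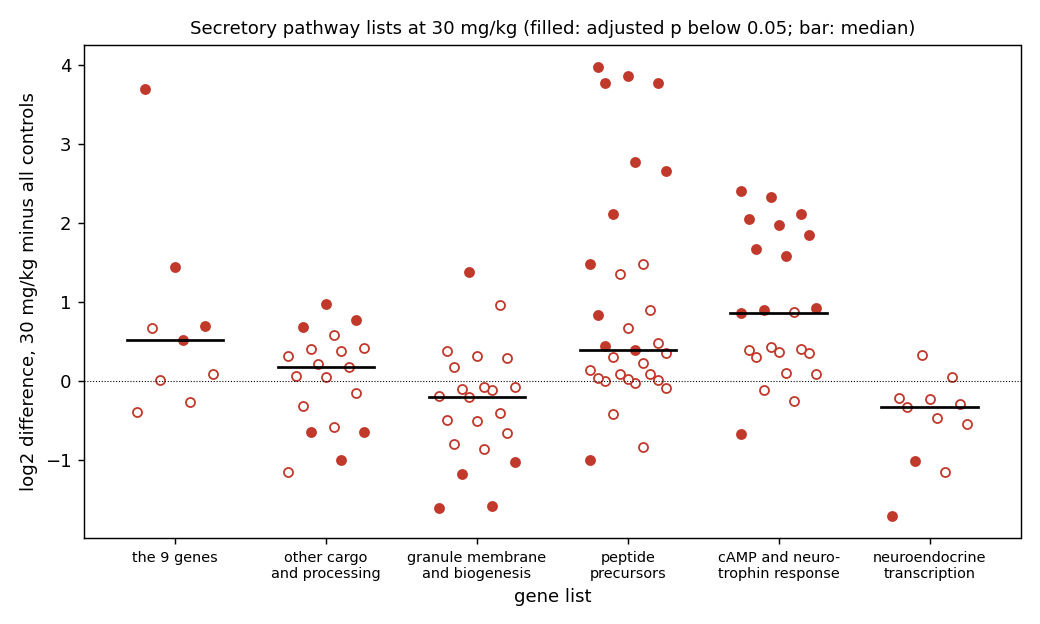
Log2 difference at 30 mg/kg minus all controls (vertical axis) of each measured gene of the 9 described here and of 5 lists of the secretory pathway, filled where the limma adjusted p was below 0.05, with a bar at each median. The medians are 0.52 for the 9 genes, 0.17 for other cargo and processing genes, -0.20 for granule membrane genes, 0.39 for peptide precursors, 0.86 for genes of cyclic AMP and neurotrophin response and signalling, and -0.34 for neuroendocrine transcription factors.

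Markers of macrophages and endothelial cells differed at 30 mg/kg, while the summed markers of the other cell types overlapped the controls. The summed signal of 7 chromaffin markers, on the log2 scale, was 13.58 to 13.87 at 30 mg/kg and 13.17 to 13.89 in controls, so the groups overlapped. Each sum adds linear values, so its brightest markers dominate it, here Th (mean 12.29 over the 17 arrays) and Dbh (12.32). Dimmer markers barely move it. By limma 2 of the 7 were lower, the noradrenaline transporter Slc6a2 (-2.33 ± 0.29, SE) and the decarboxylase Ddc (-1.95 ± 0.31). Slc6a2 kept its call without replicates 3 and 4 (-2.49 ± 0.37, adjusted p = 0.00524) and Ddc did not (-1.14 ± 0.26, adjusted p = 0.0513). The summed signal of 9 endothelial markers was 11.29 to 11.37 at 30 mg/kg and 10.43 to 11.19 in controls, and 3 of the 9 were higher, among them Flt1 (1.09 ± 0.17); without replicates 3 and 4, 0 of the 9 were, with Flt1 at 0.92 (adjusted p = 0.0554). That of 12 macrophage markers was 11.40 to 12.16 at 30 mg/kg and 12.40 to 12.80 in controls. Of the 12, 5 were lower, among them Cd74 (-2.19 ± 0.31), and 2 were without replicates 3 and 4. Cd74 had a mean of 8.99 at 30 mg/kg and 11.16 in controls, so it had a large part in that sum. The median difference of the 12 was -0.48. Of all genes, 3.66% were higher and 4.89% lower in that comparison. At 20 mg/kg 0 of the 9 endothelial and 0 of the 12 macrophage markers passed against all controls. Their summed signals were 10.72 to 11.13 and 11.70 to 12.49. Of 10 fibroblast markers, 2 were lower at that dose, Col1a1 (-0.51, limma adjusted p = 0.0221) and Col3a1 (-0.64, adjusted p = 0.0228). Of 9 cortex markers, 1 was lower, Mc2r (-1.47, adjusted p = 0.0167), and 1.18% of all genes passed. Against controls 5 to 7, 1 of the 12 macrophage markers was lower, Aif1 (-1.49, adjusted p = 0.00446), and 0.358% of all genes passed. Cortex markers summed to 14.63 to 14.98 at 30 mg/kg and 14.11 to 15.01 in controls, with 1 of 9 higher, and fibroblast markers to 11.60 to 12.44 and 11.83 to 12.49, with 1 of 10 higher and 1 lower. Schwann cell and neuron markers summed to 8.64 to 9.22 at 30 mg/kg and 8.90 to 10.01 in controls, with 1 of 9 lower, and pituitary markers to 8.02 to 8.82 and 7.57 to 9.63, with 0 of 11 called. Between the doses, sums did not overlap for cortex (13.97 to 14.54 at 20 mg/kg), Schwann cell and neuron (9.31 to 9.96) and endothelial markers. By limma, 30 against 20 mg/kg had 3 of 9 cortex, 2 of 9 endothelial and 3 of 10 fibroblast markers higher. It had 3 of 7 chromaffin, 5 of 12 macrophage and 1 of 9 Schwann cell and neuron markers lower. Of all genes, 3.92% were higher and 8.16% lower there. In bulk tissue, fewer or more cells of a type and less or more RNA per cell cannot be told apart. The part of these markers in the differences of Vgf, Pcsk2, Cpe, Pam and Scg5 was not tested.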

How the data were processed

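The authors deposited a table of log2 expression values from Affymetrix arrays; RMA and Affymetrix Expression Console 1.3.0.187 are named per the submitters' processing notes, without a role for each. The values, from 2.22 to 13.7, were used as deposited. Of 29214 probe sets, 15310 had 1 gene symbol, 323 several and 13581 none listed, and 15279 matched the rat reference table by gene identifier, with 0 symbols changed. The probe set of highest mean stood for a symbol, which left 14506 genes. Array medians lay between 4.95 and 5.11, and the number of arrays limits the precision.

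Samples were grouped by their labels. limma 3.58.1 in R 4.3.3 (lmFit, eBayes, two-sided) was fitted to all 17 arrays with 3 groups and sex, or with 4 groups and sex where controls were split by title number, after it was tested on simulated data. The pooled comparison and the product of treatment and sex were fitted with both doses as a single treated group, with sex and no dose term. Adjustment over all genes followed Benjamini and Hochberg, with a threshold of 0.05. Folds are 2 raised to the log2 difference. The 9 genes and the 12 gene lists (173 of 199 names measured) were chosen with earlier results of these data known. Named from a list were up to 4 genes with the smallest p past the threshold, and as most like Vgf the 5 genes with the highest correlation. The alternatives were a model without sex, females alone, other normalizations, variances, weights and filters, title numbers as a term, a replicate block, and single libraries left out. The fit without 30 mg/kg replicates 3 and 4 and the product of treatment and sex were added after the data were seen. Promoters were searched on both strands for 4 motifs.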

Additional observations from a re-analysis of the deposited data

How the results depend on the processing

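The genes that had passed kept their direction under the alternatives run. At 30 mg/kg against all controls Vgf stayed past the threshold under 27 of 28 alternatives, Pcsk2 under 26, Cpe under 23 and Pam under 22. Of the 4 genes past it, 2 remained in females alone, 1 with the replicate block and 0 without 30 mg/kg replicates 3 and 4. Against 20 mg/kg, 5 genes passed (1752 of all genes), and 1 did in females alone (405) and 0 without those replicates (51). Against controls 1 to 4, 3 passed (437 of all genes), and 1 did with array weights (190), 1 with the replicate block (72) and 0 without those replicates (118). With both doses pooled, 0 passed (215 of all genes), and 3 did with the run of title numbers as a term (Vgf, Pcsk2 and Pam; 712) and 1 with the replicate block (Vgf; 231).

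Leaving out single libraries gave 2 to 5 genes at 30 mg/kg against all controls, 0 to 6 against 20 mg/kg, 1 to 4 against controls 1 to 4, and 0 to 1 with both doses pooled. It gave 0 for the other comparisons. Against controls 1 to 4 a single gene passed without 30 mg/kg replicate 3 or 4, without control 1, 4 or 5, and without 20 mg/kg replicate 7. Over all genes, 1240 passed at 30 mg/kg against all controls, 251 in females alone, 72 with the replicate block, 437 with title numbers as a term and 155 without replicates 3 and 4; single libraries left out gave 456 to 1563. Same-numbered deviations from the group means correlated at -0.183 to 0.085 over all genes. These values cannot settle whether title numbers pair the samples, since paired samples need not share their deviations.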
